A study of Mus musculus with 9 samples.

Results

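The genes described are the hypoxia-inducible factor (HIF) subunits Hif1a, Epas1 and Arnt, the hydroxylases Egln1, Egln2, Egln3 and Hif1an, the ubiquitin ligase subunit Vhl, and the HIF targets Vegfa and Car9. They were taken by name, as the probe sets whose only gene symbol was one of these names. All 10 listed genes had 1 probe set each, out of 17731 genes tested. Expression was measured on 9 Affymetrix mouse arrays, as log2 values after RMA. Every group consisted of C57BL6 bone marrow cells immortalised with HoxA9, transduced with a pSF91 retroviral vector, transplanted into irradiated mice and sorted for green fluorescence from the marrow after 4 weeks. The vector was empty apart from EGFP in CTL, held wild-type IDH1 in IDH1wt, and held mutant IDH1 in IDH1mut, with 3 arrays in each group. The vector expresses its insert in whatever cell it entered, and the labels name neither the mutation nor the number of mice, clones or integration sites behind an array. The labels do not say that replicates came from separate mice, so the p-values measure the spread between these RNA samples, which may be technical.

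HIF is a dimer of an oxygen-regulated alpha subunit (HIF-1α from Hif1a, HIF-2α from Epas1) and the stable partner encoded by Arnt. In the presence of oxygen the prolyl hydroxylases encoded by Egln1, Egln2 and Egln3 mark the alpha subunit for VHL, whose ligase has it degraded, and the asparaginyl hydroxylase encoded by Hif1an blocks its coactivators. These hydroxylases use 2-oxoglutarate, the metabolite that mutant IDH1 turns into 2-hydroxyglutarate. Because this control acts on the HIF proteins, mRNA levels of the HIF subunits do not show HIF activity, and no HIF protein was measured here. Egln1, Egln3, Vegfa and Car9 are known transcriptional targets of HIF in many cell types.

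HIF binds DNA at a core of the letters ACGTG or GCGTG. The 250 bases before the annotated start of the 3 prolyl hydroxylase genes and of Car9 are shown, because Egln1 and Car9 were the members lower in IDH1mut and Egln2 and Egln3 are the closest relatives of Egln1. The sequences are RefSeq's (GRCm38.p6), read 5′ to 3′ on the gene's strand, and capitals mark each match to ACGTG or GCGTG on either strand. Egln1 lies at chr8:124949255-124949504 (minus strand), Egln2 at chr7:27166803-27167052 (minus), Egln3 at chr12:54203875-54204124 (minus) and Car9 at chr4:43506776-43507025 (plus).
Egln1: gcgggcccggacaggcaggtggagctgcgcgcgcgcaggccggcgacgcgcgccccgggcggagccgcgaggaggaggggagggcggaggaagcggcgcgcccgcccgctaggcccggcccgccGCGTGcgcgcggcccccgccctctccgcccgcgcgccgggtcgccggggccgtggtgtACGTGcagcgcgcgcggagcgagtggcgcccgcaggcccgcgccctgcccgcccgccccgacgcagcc
Egln2: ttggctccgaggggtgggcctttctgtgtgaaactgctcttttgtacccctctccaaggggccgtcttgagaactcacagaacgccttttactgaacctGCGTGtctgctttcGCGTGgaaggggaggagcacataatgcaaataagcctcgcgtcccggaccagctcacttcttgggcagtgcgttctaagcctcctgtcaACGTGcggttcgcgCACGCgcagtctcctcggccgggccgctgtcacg
Egln3: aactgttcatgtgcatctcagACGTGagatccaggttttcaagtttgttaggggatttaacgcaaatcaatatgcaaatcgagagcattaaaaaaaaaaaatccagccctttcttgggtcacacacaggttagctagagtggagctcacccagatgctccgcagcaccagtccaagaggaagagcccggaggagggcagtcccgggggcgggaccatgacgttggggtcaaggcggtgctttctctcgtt
Car9: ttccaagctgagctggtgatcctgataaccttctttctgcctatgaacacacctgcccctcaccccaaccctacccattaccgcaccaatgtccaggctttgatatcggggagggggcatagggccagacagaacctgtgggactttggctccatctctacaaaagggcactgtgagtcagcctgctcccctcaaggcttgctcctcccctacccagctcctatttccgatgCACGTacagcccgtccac

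The Egln1 window held 1 ACGTG and 1 GCGTG, the Egln2 window 1 ACGTG and 3 GCGTG, and the windows of Egln3 and Car9 1 ACGTG each. Matches overlapped in the Hif1a window, where a palindromic ACGTG pair was counted on both strands. Of the 9 members with such a window, 7 held a match in at least 1 of theirs, and the windows of Hif1an and Vhl held none. The table gave 2 starts for Egln2 and for Vegfa, and the first Vegfa window had no match whereas the second had 2. The second window of both genes lies inside the annotated gene, and so does the only Hif1a window (chr12:73907617-73907866, in a gene starting at 73901324). Vegfa and Hif1a are among the 7 only through such a window. Counted by window, 8 of the 11 member windows held either core. Among all 32851 windows of this length, 38.6% did (16.6% ACGTG and 28.2% GCGTG). A match is a description of the letters and not a binding site, and Egln2 and Egln3, which carry the core too, did not pass in any comparison.

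All arrays had medians between 4.65 and 4.72, and replicate arrays correlated across genes at r between 0.992 and 0.997. Myeloid granule genes read high in every group, with Mpo at group means from 12.69 to 13.35 and Camp from 13.83 to 14.06. Hif1a, Epas1, Arnt and Hif1an read below the median on all 9 arrays, and the other 6 members above it on all 9. A dim reading does not show that a gene is off in these cells. Tpt1 and Rps3, which nearly all cells express at high levels and which were picked after their values were seen, read 2.45 ± 0.11 (SD, n = 3) and 4.06 ± 0.16 in CTL. The table holds about 1 probe set per gene, RMA gives no detection call, and differences of dim probe sets are compressed. Of the list genes named below, Stc2, Lox, Ing4, Flt1, Flt4, Adm and Ankrd37 also read below the median on all 9 arrays.

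**Figure D1:**
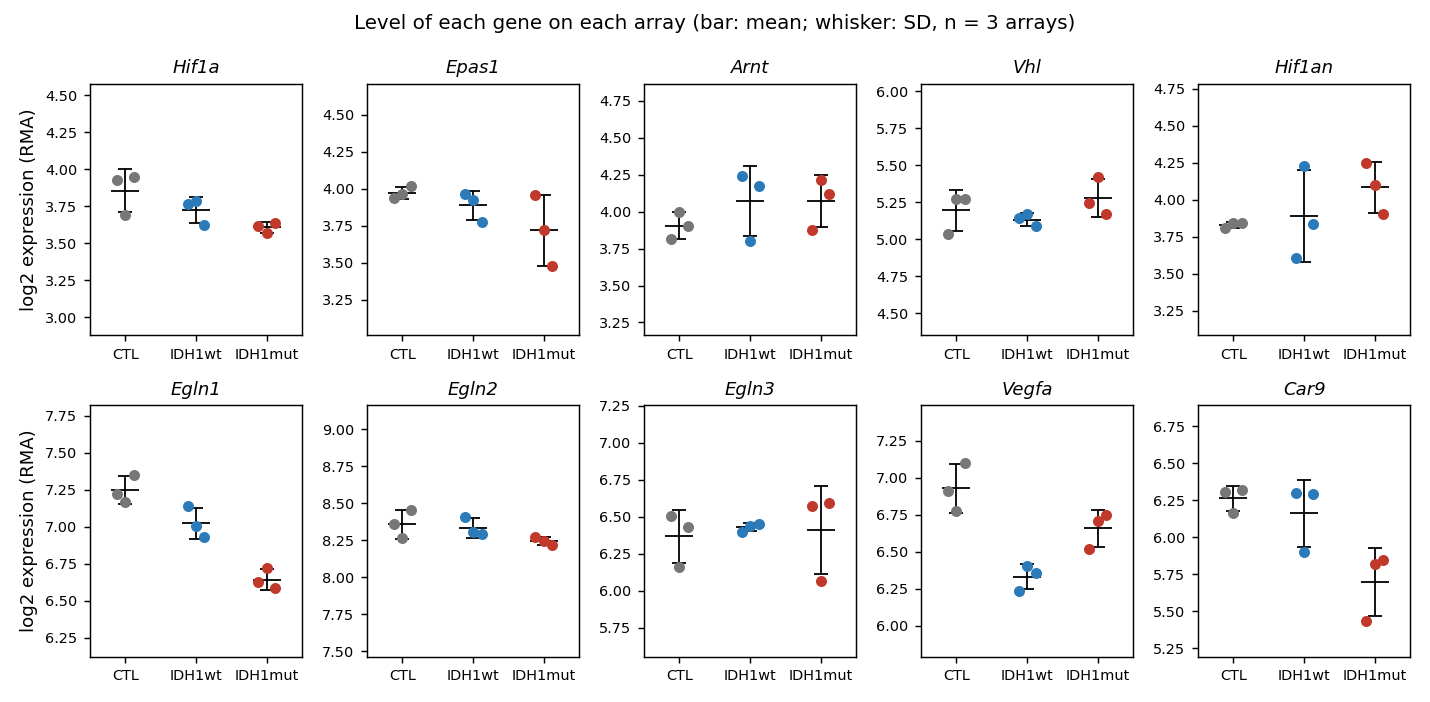
Log2 expression (RMA, vertical axis, with the same span in every panel) of the 10 genes on the 3 arrays of each group (points), with group mean (bar) and SD (whisker). The IDH1mut arrays lie below all other arrays for Egln1 and Car9, and the IDH1wt arrays below all other arrays for Vegfa.

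Egln1, whose product PHD2 is the main oxygen sensor acting on HIF-1α, was lower in IDH1mut than in both other groups. It read 7.22, 7.17 and 7.35 on the CTL arrays, 7.137, 7.002 and 6.928 on the IDH1wt arrays, and 6.62, 6.72 and 6.58 on the IDH1mut arrays. No array of any group overlapped with those of another, and the order was CTL, IDH1wt, IDH1mut. Against CTL, Egln1 fell 1.52-fold in IDH1mut (a log2 fold change of -0.60 with an SE of 0.10, 3 arrays against 3; limma's adjusted p = 0.00135, Benjamini-Hochberg over all genes). This call was kept in each alternative tried, and leaving out single arrays moved the change between -0.64 and -0.55. Against IDH1wt, it fell 1.302-fold (-0.38 ± 0.10; adjusted p = 0.0242). That call was lost without IDH1wt replicate 1 (adjusted p = 0.0804), IDH1mut replicate 1 (0.0582) or IDH1mut replicate 3 (0.0698), and when CTL was left out of the fit (0.0509). IDH1wt against CTL did not pass (-0.22 ± 0.10; adjusted p = 0.27), with a 95% interval from -0.43 to -0.01.

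Several lists of cell type markers also differed between groups. Over 17 measured erythroid markers the mean log2 level ran from 6.76 to 6.82 on CTL arrays, 6.47 to 7.94 on IDH1wt arrays and 7.93 to 8.19 on IDH1mut arrays, and 15 of the 17 rose in IDH1mut against CTL. The highest IDH1wt value, 7.94, was that of replicate 2, which read 7.002 for Egln1. Over 18 late neutrophil markers the mean ran from 11.18 to 11.30 in CTL, 11.34 to 11.42 in IDH1wt and 11.86 to 11.92 in IDH1mut, and 14 rose in IDH1mut against CTL. Over 13 early granulocyte markers it ran from 11.60 to 11.69 in CTL, 11.50 to 11.61 in IDH1wt and 10.97 to 11.01 in IDH1mut, and 11 fell. In the same comparison 2 of 17 monocyte and macrophage markers rose and 5 fell (41.2% called). Of 14 B cell markers 4 rose (28.6%), and of 12 T and NK cell markers 3 rose and 1 fell (33.3%). Among 13 mast cell, basophil and eosinophil markers 2 rose and 6 fell (61.5%). The erythroid, late neutrophil and early granulocyte shares were 88.2%, 77.8% and 84.6%, beside 20.7% of all genes. Against IDH1wt they were 5.88%, 72.2% and 69.2%, beside 13.3% of all genes. The monocyte, B cell, T and NK cell, and mast cell lists had 41.2%, 21.4%, 33.3% and 46.2% called against IDH1wt. The part of any of these marker lists, erythroid ones included, in the Egln1 difference was not tested. In such sorted bulk samples, fewer cells of a type and less RNA per cell cannot be told apart.

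Neither paralog of Egln1 passed in any comparison. Egln2, which encodes PHD1, read 8.36, 8.26 and 8.46 in CTL, 8.41, 8.30 and 8.29 in IDH1wt and 8.27, 8.24 and 8.22 in IDH1mut. Its whole range over 9 arrays was 0.24 log2 units, the smallest of the 10 members, and the IDH1mut arrays overlapped those of CTL but lay below those of IDH1wt. Its log2 fold change was -0.12 ± 0.09 in IDH1mut against CTL (adjusted p = 0.423), with a 95% interval from -0.31 to 0.08. That interval and the one of Egln1, -0.81 to -0.39, do not overlap, and the difference between these genes was not tested. Egln3 encodes PHD3, whose mRNA is known to respond strongly to hypoxia in other cells. It read 6.51, 6.16 and 6.43 in CTL, 6.40, 6.44 and 6.45 in IDH1wt and 6.58, 6.07 and 6.59 in IDH1mut. The lowest value of all, on IDH1mut replicate 2, lay beside 2 of the 3 highest in the same group, and the groups overlapped. Egln3 spanned 0.53 log2 units over the 9 arrays, and its SD of 0.30 in IDH1mut was the largest of the 10 members in that group. Its change in IDH1mut against CTL was 0.04 ± 0.14 (adjusted p = 0.875; 95% interval -0.27 to 0.36).

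Hif1an, which encodes the asparaginyl hydroxylase FIH, read 3.81, 3.85 and 3.84 in CTL, 3.61, 4.23 and 3.84 in IDH1wt and 4.25, 4.10 and 3.91 in IDH1mut. The IDH1mut arrays were all above CTL, but the IDH1wt arrays spanned both, and the change of 0.25 ± 0.15 did not pass (adjusted p = 0.27). Vhl, the subunit that recognises hydroxylated HIF, read 5.04, 5.28 and 5.27 in CTL, 5.15, 5.17 and 5.09 in IDH1wt and 5.25, 5.42 and 5.17 in IDH1mut. Its change in IDH1mut against CTL was 0.08 ± 0.10 (adjusted p = 0.641; 95% interval -0.14 to 0.31). Against IDH1wt the IDH1mut arrays were all higher, by 0.14 ± 0.10 (adjusted p = 0.423).

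None of the 3 HIF subunit genes passed in any comparison with limma. At an unadjusted limma p under 0.05, Hif1a in IDH1mut against CTL was the only such difference. Hif1a read 3.93, 3.69 and 3.95 in CTL, 3.76, 3.78 and 3.62 in IDH1wt and 3.61, 3.57 and 3.64 in IDH1mut. The IDH1mut arrays were below all CTL arrays and overlapped those of IDH1wt, with a change of -0.25 ± 0.10 against CTL (adjusted p = 0.105). With array weights (adjusted p = 0.0388) or without CTL replicate 2 (0.0473) this difference passed. Epas1, best known from endothelium and from erythropoietin-producing cells, read 3.94, 3.96 and 4.02 in CTL, 3.96, 3.92 and 3.78 in IDH1wt and 3.96, 3.72 and 3.48 in IDH1mut. The IDH1mut arrays spread widest, from the CTL level downwards, and the change of -0.25 ± 0.12 did not pass (adjusted p = 0.17) except without IDH1mut replicate 1 (0.041). The mean over 19 endothelial and stromal markers lay between 4.40 and 4.60 on all 9 arrays, below the array medians. Within that list 2 rose and 2 fell in IDH1mut against CTL (21.1% called, beside 20.7% of all genes). Cxcl12 and Adipoq rose, and Vcam1 and Pecam1 fell, the latter from 6.91 to 6.25. Arnt read 3.814, 3.997 and 3.903 in CTL, 4.24, 3.80 and 4.17 in IDH1wt and 3.87, 4.21 and 4.12 in IDH1mut, with overlap in every comparison and changes of 0.16 ± 0.13 (adjusted p = 0.442) in IDH1mut and 0.17 ± 0.13 (adjusted p = 0.573) in IDH1wt against CTL.

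Car9 encodes carbonic anhydrase IX, a membrane enzyme widely used as a marker of HIF-1 activity in tumours. It read 6.30, 6.16 and 6.32 in CTL, 6.30, 5.90 and 6.29 in IDH1wt and 5.43, 5.82 and 5.84 in IDH1mut. The 3 IDH1mut arrays were the lowest of the 9. Car9 fell 1.48-fold in IDH1mut against CTL (-0.56 ± 0.14; adjusted p = 0.0143), which no longer passed when CTL replicate 1 (0.0527) or CTL replicate 3 (0.052) was dropped. It fell 1.38-fold against IDH1wt (-0.46 ± 0.14; adjusted p = 0.0485). This second call did not survive dropping any array but IDH1wt replicate 2 (0.159 at most, on dropping IDH1wt replicate 3). It also failed with probe sets tested singly (0.0515), quantile normalisation repeated (0.0633), the replicate number as a block (0.063) and only the 6 arrays compared (0.0934). IDH1wt against CTL gave -0.10 ± 0.14 (adjusted p = 0.77; 95% interval -0.40 to 0.21). The marker lists that differed beside Egln1 did so beside Car9 as well. The mean over 13 mast cell, basophil and eosinophil markers read 6.76, 7.12 and 7.13 on the IDH1mut arrays. It ran from 7.48 to 7.64 in CTL and from 7.42 to 8.13 in IDH1wt. This mean was lowest on IDH1mut replicate 1, as was Car9. It was the highest of the 9 arrays on IDH1wt replicate 2, at 8.13. On that array Car9 read 5.90, its lowest value outside IDH1mut. The erythroid mean there, 7.94, was the highest of IDH1wt and lay within the IDH1mut range of 7.93 to 8.19. On IDH1wt replicates 1 and 3 the erythroid mean read 6.47 and 7.42, and Car9 6.30 and 6.29. Within IDH1mut the erythroid mean was lowest on replicate 1, at 7.93, as was Car9, at 5.43. The part of the marker lists in the Car9 difference was not tested.

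Vegfa encodes the vascular endothelial growth factor VEGF-A, and its order differed from that of Egln1 and Car9. It read 6.91, 6.77 and 7.10 in CTL, 6.23, 6.40 and 6.36 in IDH1wt and 6.52, 6.71 and 6.75 in IDH1mut. No arrays of different groups overlapped, and the lowest group was IDH1wt. Vegfa fell 1.51-fold in IDH1wt against CTL (-0.60 ± 0.11; adjusted p = 0.0176). The call was lost without CTL replicate 1 (adjusted p = 0.0711), CTL replicate 3 (0.0799) or IDH1wt replicate 3 (0.0626). In IDH1mut against CTL the change was -0.27 ± 0.11 (adjusted p = 0.112), and in IDH1mut against IDH1wt 0.33 ± 0.11 (adjusted p = 0.075). The latter passed when dim genes were dropped (adjusted p = 0.0335) and after repeated quantile normalisation (0.0412). The mean over 13 megakaryocyte and platelet markers, cells known to hold VEGF-A, ran from 5.62 to 6.07 in CTL, 5.83 to 5.93 in IDH1wt and 5.98 to 6.15 in IDH1mut, with the IDH1wt arrays inside the CTL range. The mean over 12 T and NK cell markers was lowest in IDH1wt, as Vegfa was, at 4.88 to 4.99, beside 5.11 to 5.16 in CTL and 5.15 to 5.37 in IDH1mut. In IDH1wt against CTL, however, 0 of these 12 and 0 of the 13 megakaryocyte markers were called. Among late neutrophil markers 2 of 18 rose (11.1%). Vcam1 fell, as 1 of 17 monocyte markers (5.88%) and 1 of 19 endothelial and stromal ones (5.26%), beside 2.33% of all genes. The other marker lists had 0 called. The part of any marker list in the Vegfa difference was not tested.

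**Figure D2:**
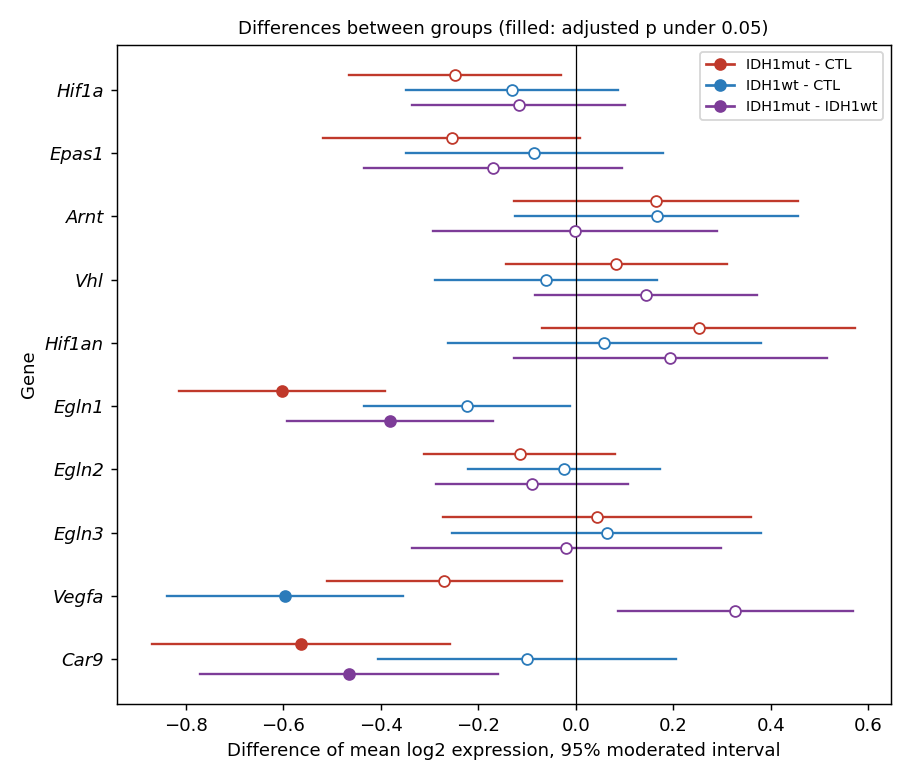
Difference of mean log2 expression (horizontal axis) for each gene in the 3 comparisons, with 95% moderated intervals that are not adjusted for the number of genes. Filled points passed an adjusted p of 0.05: Egln1 and Car9 in IDH1mut against CTL and against IDH1wt, and Vegfa in IDH1wt against CTL.

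Counted together, 2 of the 10 members changed in IDH1mut against CTL, both downwards, where 20.7% of all genes were called (10.1% rose and 10.6% fell). The groups did not overlap for 5 members, against 37.8% of all genes. In IDH1wt against CTL, 1 of 10 fell and the arrays of 2 did not overlap, beside 2.33% called among all genes (1.62% up and 0.711% down) and 23.6% without overlap. In IDH1mut against IDH1wt, 2 of 10 fell and 5 did not overlap, beside 13.3% called (6.54% up and 6.78% down) and 29.5% without overlap. The share of members called in IDH1mut against CTL was thus near that of all genes. The median log2 fold change of the members was -0.18, -0.07 and -0.05 in these comparisons, beside -0.04, -0.04 and -1e-04 over all genes. The comparisons share arrays and are not independent of each other.

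Other genes of the pathway came from lists chosen with earlier results of these data known, holding 85 measured genes besides the members. In IDH1mut against CTL 11 of the 85 rose and 10 fell (24.7% called, beside 20.7% of all genes), with a median log2 fold change of -0.01. Without CTL replicate 1, 11 of the 85 were called, and calls over all 17731 genes went from 3663 to 2370. Without CTL replicate 3, the counts were 13 and 2603. In IDH1wt against CTL limma called 0 of 85, with 15 at an unadjusted p under 0.05, beside 17% of all genes. It called 8 with array weights, where calls over all genes went from 414 to 1226, and 1 when IDH1mut was left out of the fit. In IDH1mut against IDH1wt 9 rose and 7 fell (18.8% called, beside 13.3% of all genes), with 2363 calls over all genes. The pathway calls and those over all genes were 10 and 1662 when CTL was left out of the fit, 9 and 1619 without IDH1wt replicate 1, and 9 and 1528 without IDH1mut replicate 2.

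**Figure D3:**
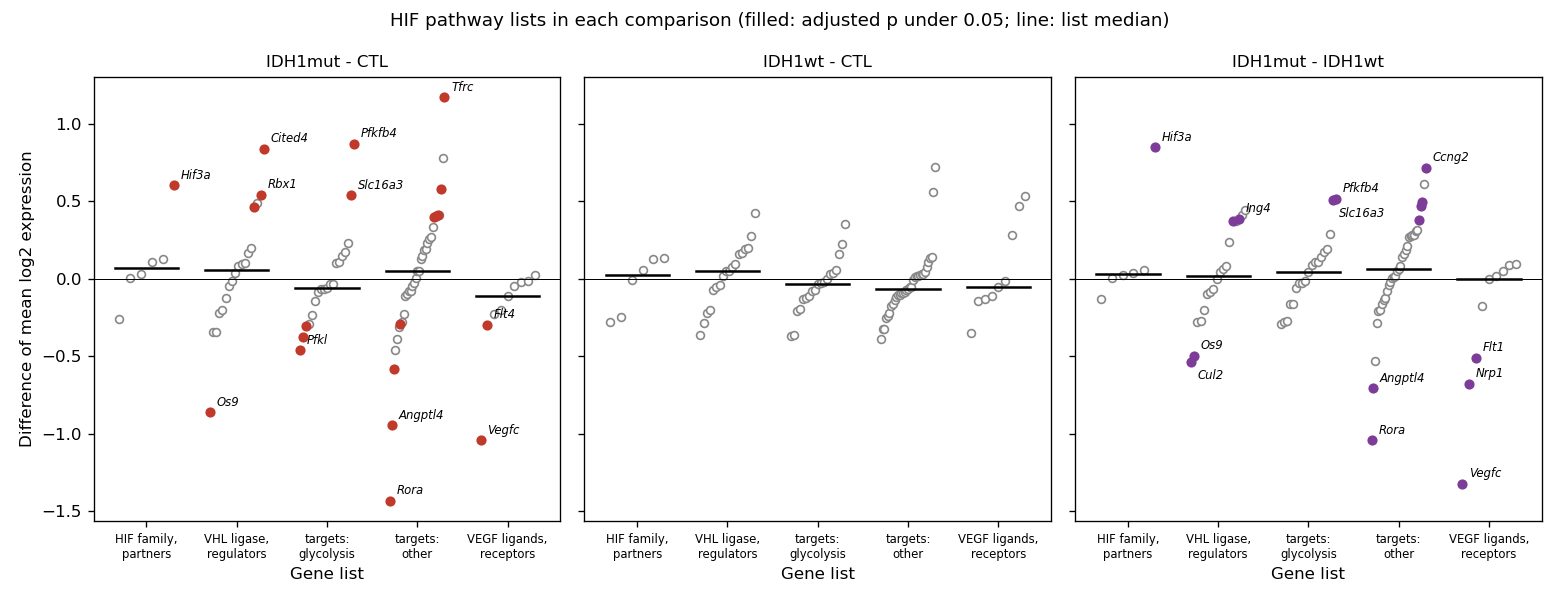
Difference of mean log2 expression (vertical axis) of 85 pathway genes in 5 lists, in each of the 3 comparisons, with filled points past an adjusted p of 0.05 and a line at each list's median. Filled points lie on both sides of 0 in IDH1mut, there are none in IDH1wt against CTL, and list medians stay close to 0.

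Of 6 other HIF family and partner genes only Hif3a changed. That was 16.7% called in IDH1mut against CTL and against IDH1wt, beside 20.7% and 13.3% of all genes. Hif3a encodes a further alpha subunit, several splice forms of which oppose the other HIFs. It read 6.20, 6.13 and 6.04 in CTL, 5.92, 5.99 and 5.72 in IDH1wt and 6.76, 6.43 and 6.99 in IDH1mut. All IDH1mut arrays were above, and all IDH1wt arrays below, the CTL arrays. Hif3a rose 1.52-fold in IDH1mut against CTL (0.60 ± 0.14; adjusted p = 0.00879) and 1.80-fold against IDH1wt (0.85 ± 0.14; adjusted p = 0.00238), and both calls were kept in each alternative.

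Among 18 genes of the VHL ligase and of HIF stability or activity, 3 rose and 1 fell in IDH1mut against CTL (22.2% called, beside 20.7% of all genes). Os9, a lectin of the endoplasmic reticulum that has also been described as a partner of HIF-1α and prolyl hydroxylases, fell by 0.86 ± 0.14 on the log2 scale (adjusted p = 0.00128), from 6.74 ± 0.11 in CTL to 5.88 ± 0.11. Cited4, which encodes a protein that binds the HIF coactivators CBP and p300, rose by 0.84 ± 0.15 (adjusted p = 0.00277). Rbx1, the RING subunit of the VHL ligase, rose by 0.54 (adjusted p = 0.0217), which dropping any of 4 arrays undid (up to 0.0876, for IDH1mut replicate 3). Usp33, a deubiquitinase, rose by 0.47 (adjusted p = 0.0111), a call lost without CTL replicate 1 (0.0516). Against IDH1wt, Usp33 and Ing4 rose and Os9 and Cul2, the ligase's cullin, fell, at adjusted p from 0.0339 to 0.0458. That was 22.2% of the list, beside 13.3% of all genes. Dropping any of at least 4 of the 6 arrays undid each of these 4 calls, at adjusted p up to 0.155, and so did leaving CTL out of the fit (0.0608 to 0.0722). Further alternatives undid each as well, among them array weights for Os9 (0.113) and Cul2 (0.0893). Cited2, a known HIF target and competitor for p300, read 7.55 ± 0.19 in CTL and 7.65 ± 0.09 in IDH1mut and did not pass (adjusted p = 0.587).

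Of 19 measured HIF targets of glucose uptake and glycolysis, 14 did not pass in IDH1mut against CTL, 2 rose and 3 fell. The share called was 26.3%, near the 20.7% of all genes, and the median log2 fold change was -0.06. Pfkfb4, which sets the level of the activator of phosphofructokinase, rose 1.83-fold (0.87 ± 0.12; adjusted p = 0.000626), from 9.09 ± 0.10 to 9.96 ± 0.18. Slc16a3, the lactate exporter MCT4, rose by 0.54 ± 0.12 (adjusted p = 0.00879). Against IDH1wt these same genes were the 2 called (10.5%, beside 13.3% of all genes). Pfkfb4 rose by 0.52 (adjusted p = 0.0179), a call lost without IDH1wt replicate 1, IDH1mut replicate 1 or IDH1mut replicate 2 (up to 0.064). Slc16a3 rose by 0.51 (adjusted p = 0.0182, or 0.0616 without IDH1wt replicate 1). The phosphofructokinase subunit gene Pfkl (-0.46; adjusted p = 0.0101), hexokinase gene Hk1 (-0.38; adjusted p = 0.0479) and Tpi1 (-0.31; adjusted p = 0.0278) fell against CTL. Pfkl lost its call without CTL replicate 1 (0.0536), and Hk1 and Tpi1 when any of 5 arrays was dropped, up to 0.177 and 0.1, or with the replicate block (0.0728 and 0.0502). Hk1 also lost its call with arrays centred on their medians (0.0722), probe sets tested singly (0.0515) and IDH1wt left out of the fit (0.0638). The commonly used glycolytic targets did not pass. Slc2a1, the glucose transporter GLUT1, changed by 0.23 ± 0.15 (adjusted p = 0.328), Ldha by -0.03 ± 0.09 (adjusted p = 0.853), Pgk1 by 0.17 ± 0.08 (adjusted p = 0.179) and Pdk1 by -0.07 ± 0.11 (adjusted p = 0.744) in IDH1mut against CTL.

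Of 33 other HIF targets 5 rose and 4 fell in IDH1mut against CTL (27.3% called, beside 20.7% of all genes), with a median of 0.05. The nuclear receptor gene Rora fell 2.70-fold (-1.43 ± 0.16; adjusted p = 0.000168), from 5.23, 5.27 and 5.07 in CTL to 3.87, 3.81 and 3.59 in IDH1mut. Angptl4, an inhibitor of lipoprotein lipase, fell 1.93-fold (-0.95 ± 0.09; adjusted p = 9.03e-05), from 6.97, 7.16 and 7.02 to 6.10, 6.12 and 6.09. The IDH1wt arrays lay between these groups for Angptl4, at 6.88, 6.85 and 6.70, and overlapped CTL for Rora. Tfrc, the transferrin receptor, rose 2.25-fold (1.17 ± 0.21; adjusted p = 0.00235) and is also an erythroid marker. On IDH1wt replicate 2, the array of that group with the highest erythroid level, Tfrc read 10.24, beside 10.27 to 10.45 on the IDH1mut arrays. Ccng2, encoding cyclin G2, rose by 0.58 ± 0.12 (adjusted p = 0.0066). Ak4, a mitochondrial adenylate kinase, fell by 0.58 (adjusted p = 0.034) and Stc2, stanniocalcin 2, rose by 0.41 (adjusted p = 0.0308). Dropping any of 5 arrays undid the call of Ak4 (up to 0.12), and any of 4 that of Stc2 (up to 0.131). The call of Ak4 also ended with array weights (0.087), and that of Stc2 with the replicate block (0.055).

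Against IDH1wt, 4 of these 33 rose and 2 fell (18.2% called, beside 13.3% of all genes). Ccng2 (0.72; adjusted p = 0.0037) and Gbe1 (0.50; adjusted p = 0.0055), the glycogen branching enzyme, rose, and Rora (-1.04; adjusted p = 0.00198) and Angptl4 (-0.71; adjusted p = 0.000891) fell, each in every alternative. Ero1a (0.47; adjusted p = 0.0315), an oxidoreductase of the endoplasmic reticulum, and Lox (0.38; adjusted p = 0.0402), lysyl oxidase, rose too. Dropping any of 5 arrays undid these calls, up to 0.106 and 0.141, as did leaving CTL out of the fit (0.0598 and 0.0503). The Lox call was also lost with an intensity trend and robust variances (0.0563). Ddit4, an inhibitor of mTOR signalling, read 7.40, 7.43 and 7.52 in CTL, 7.57, 8.64 and 8.29 in IDH1wt and 8.73, 7.87 and 8.09 in IDH1mut. All arrays with an IDH1 vector were above CTL but spread widely, and the changes of 0.78 ± 0.26 in IDH1mut (adjusted p = 0.0516) and 0.72 ± 0.26 in IDH1wt (adjusted p = 0.186) did not pass. Bnip3, a mitophagy receptor, changed by 0.33 ± 0.15 (adjusted p = 0.158), Ankrd37 by -0.03 ± 0.12 (adjusted p = 0.912) and Adm, adrenomedullin, by -0.09 ± 0.16 (adjusted p = 0.745) in IDH1mut against CTL.

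Among 9 other VEGF ligands and receptors, 0 rose and 2 fell in IDH1mut against CTL (22.2% called, beside 20.7% of all genes). Vegfc, the ligand best known for lymphatic vessel growth, read 6.55, 6.37 and 6.54 in CTL, 7.24, 6.39 and 6.67 in IDH1wt and 5.43, 5.51 and 5.39 in IDH1mut. The IDH1mut arrays were far below both other groups, which overlapped. Vegfc fell 2.06-fold against CTL (-1.04 ± 0.17; adjusted p = 0.00172) and 2.503-fold against IDH1wt (-1.32 ± 0.17; adjusted p = 0.000877), so that Vegfc and Vegfa were lowest in different groups. Its receptor gene Flt4 fell by 0.30 against CTL (adjusted p = 0.0327), which dropping any of 5 arrays (up to 0.109) or the replicate block (0.0584) undid. The Flt4 call was also lost with an intensity trend and robust variances (0.0821). The coreceptor gene Nrp1 (-0.68; adjusted p = 0.0111) and the VEGF-A receptor gene Flt1 (-0.51; adjusted p = 0.0272) fell in IDH1mut against IDH1wt. With Vegfc, 33.3% of this list was called there, beside 13.3% of all genes. For Flt1 the IDH1wt arrays stood apart, 0.53 above CTL (adjusted p = 0.0636), whereas IDH1mut differed from CTL by 0.03 (adjusted p = 0.924). Nrp1 likewise read 0.47 above CTL in IDH1wt (adjusted p = 0.127) and -0.20 from it in IDH1mut (adjusted p = 0.379). The Flt1 call was lost without IDH1wt replicate 2, IDH1mut replicate 2 or IDH1mut replicate 3 (up to 0.0883), with the replicate block (0.0525) and with CTL left out of the fit (0.0577). Kdr, the main VEGF-A receptor of endothelium, read between 5.09 and 5.24 in group means and did not pass in any comparison.

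The members called at least once were set beside all other genes by Pearson correlation over the 9 arrays, as a description in which the arrays of a group share its level. The genes most like Egln1 were Ube2e1 (r = 0.992), a ubiquitin-conjugating enzyme gene, Ywhag (0.991), which encodes a 14-3-3 protein, and Rplp0 (0.987), a ribosomal protein gene, and 557 genes had r above 0.9. Ube2e1 went from 10.12 ± 0.05 in CTL through 10.01 ± 0.06 in IDH1wt to 9.78 ± 0.06 in IDH1mut. A high r does not mean a change of like size. Ywhag went from 4.88 ± 0.10 in CTL to 4.23 ± 0.07 in IDH1mut. Rplp0 went only from 13.14 ± 0.02 to 12.96 ± 0.01 and did not pass (limma's adjusted p = 0.146). Vegfa had 22 genes above 0.9, led by Myl10 (0.958), Wdfy1 (0.954) and Klhl22 (0.95). Myl10 and Wdfy1 were lowest in IDH1wt as well, with Wdfy1 at 8.30 ± 0.18 in CTL, 6.28 ± 0.04 in IDH1wt and 7.39 ± 0.36 in IDH1mut. For Car9, 142 genes had r above 0.9, led by Med9 (0.971), Phldb2 (0.97) and Diras2 (0.969).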

How the data were processed

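The deposited values are log2 expression values per probe set of 9 arrays, which the authors made with RMA (background correction, quantile normalisation and probe set summary), per the submitters' processing notes, with no version given. The table held 20877 probe sets, 17815 with 1 gene symbol in a platform annotation of 2016, 244 with several and 2818 with none; only the first kind was used. The sources used here do not state how the table came to hold about 1 probe set per gene.

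Where a gene had several probe sets, the brightest by its mean over all arrays stood for it. Group means of the 17731 genes were fitted over the 9 arrays together with limma 3.58.1 (R 4.3.3, lmFit and eBayes), and the 3 contrasts were tested two-sided with Benjamini-Hochberg adjustment over all genes at 0.05. "Rose", "fell" and "changed" mark genes past it, and ± is the SD of arrays for levels and the moderated SE for differences. The fit was tested on simulated data. The precision is limited by 3 arrays per group.

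The members and gene lists were chosen with earlier results of these data known. Named list genes are those called in a comparison, up to 6 per list by size, and 9 fixed targets and regulators. Likeness was read from the 3 genes of highest Pearson r. Alternatives covered probe set choice, dim genes, normalisation, centring, spread model, array weights, replicate block, arrays fitted and each array left out. Promoter windows and gene names are RefSeq's (GRCm38.p6), and Epas1 had no window in the table.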

Additional observations from a re-analysis of the deposited data

How the results depend on the processing

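Of 438 refits of a member's difference, 402 kept direction and side of the threshold, 18 lost a call, 5 gained 1 and 13 changed sign, none of the last among called differences. The fall of Egln1 in IDH1mut against CTL was called in every alternative. With array weights Egln3 in IDH1mut against CTL turned to -0.0811 and Arnt in IDH1mut against IDH1wt to 2e-04. Leaving out single arrays, sign changes gave ranges of -0.058 to 0.216 (IDH1mut against CTL), -0.0387 to 0.133 (IDH1wt against CTL) and -0.11 to 0.153 (IDH1mut against IDH1wt) for Egln3, and -0.136 to 0.0966 for Arnt in the last. In IDH1wt against CTL they were -0.073 to 0.0241 for Egln2, -0.109 to 0.201 for Hif1an and -0.166 to 0.0313 for Car9.

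Members called ranged from 1 to 3 (IDH1mut against CTL), 0 to 1 (IDH1wt against CTL) and 0 to 2 (IDH1mut against IDH1wt) on leaving out 1 array, and pathway genes from 11 to 20, 0 to 4 and 9 to 14. In IDH1mut against IDH1wt the members called were 1 with probe sets tested singly, 1 with the replicate block and 0 on the 6 arrays compared, and pathway genes 10 on those 6. In IDH1wt against CTL pathway genes were 8 with array weights and 1 on the 6 arrays. The cause of these shifts was not tested.

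Deviations of same-numbered arrays correlated between -0.09 and 0.03 (9 pairs). In 3 of 9 searches for an array's best match in another group, the match had the same number. No pairing by number was seen, which does not show that there was none. The replicate block took calls over all genes from 3663 to 3383, from 414 to 314 and from 2363 to 2035. Depth does not apply, and signal over background was not measured, which limits the dim probe sets, among them those of Hif1a, Epas1, Arnt and Hif1an.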
